A study of Rattus norvegicus with 8 samples.

Results

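The genes described here are 10 genes of the unfolded protein response and of the stress response driven by the transcription factor ATF4, measured in hepatocytes of regenerating rat livers. They were taken as the non-control probes whose gene name on the array was Ddit3, Atf4, Trib3, Asns, Chac1, Sesn2, Hspa5, Hsp90b1, Dnajb9 or Herpud1. All 10 were found, each by 1 distinct probe, on 30 of the 58717 non-control spots of the array, which carries 45598 distinct probes in all. Atf4 and Hspa5 were printed on 10 spots each, Asns and Hsp90b1 on 2 spots each, and the other genes on 1 spot.

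The recipients were F344 rats, described in the labels as a dipeptidylpeptidase IV (DPPIV)+ strain and in the study's methods as females of a DPPIV- strain. Per the methods, every recipient was given 2 injections of retrorsine (Ret, 30 mg/kg), an alkaloid that blocks division of mature hepatocytes, followed by 70% partial hepatectomy (PH), and BM-MC recipients were harvested 14 days after transplantation. Mature hepatocytes (MHs, n = 2) and clusters of small hepatocyte-like progenitor cells (SHPCs, n = 3), which grow out after Ret/PH, were cut by laser from livers labelled as control recipients. A further group of SHPC clusters (n = 3) was cut from livers that had received bone marrow-derived mesenchymal cells (BM-MCs), primary cultured cells of male DPPIV+ F344 donors given through the spleen and not purified as stem cells. No age of the recipients and no tie from a sample to an animal is given, so p-values measure the spread between samples. They are too small if samples of the same group share a rat, and may be too large if samples of different groups do.

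Cells meet an excess of unfolded protein in the endoplasmic reticulum (ER) by making more of the chaperones and degradation factors of that compartment, under the sensors ATF6, IRE1 with XBP1, and PERK. PERK and other kinases phosphorylate the initiation factor eIF2alpha, which slows translation in general and favours translation of ATF4. ATF4 then switches on genes for amino acid supply and for stress signalling. Hepatocytes secrete large amounts of protein and hold an extensive ER, and their ATF4 targets also answer to lack of amino acids. The mRNA of ATF4 is thus only part of its regulation.

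Promoters of 5 of the genes are shown because they hold elements through which these pathways are known to act. The 250 bases before the transcription start were taken from RefSeq on GRCr8, and all 10 genes had an entry. Both strands were searched for the C/EBP-ATF response element core TGATGNAA, for the ER stress response element (CCAAT, 9 bases, CCACG), for its second form (ATTGG, 1 base, CCACG) and for the unfolded protein response element TGACGTGG. The last of these elements was in 0 of the 10 promoters and in 0.52% of 33469 promoters. No searched element was in the windows of Ddit3, Atf4, Asns, Sesn2 or Dnajb9, which says only that these letters are not in those 250 bases. In the sequences below, capitals mark the elements found.
Trib3 (chr3:161275534-161275783, minus strand): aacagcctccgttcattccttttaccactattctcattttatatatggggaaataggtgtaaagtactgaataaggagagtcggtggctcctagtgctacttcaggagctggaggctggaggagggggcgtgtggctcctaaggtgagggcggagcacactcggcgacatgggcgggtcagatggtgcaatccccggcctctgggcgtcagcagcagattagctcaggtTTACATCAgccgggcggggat
Chac1 (chr3:126795881-126796130, plus strand): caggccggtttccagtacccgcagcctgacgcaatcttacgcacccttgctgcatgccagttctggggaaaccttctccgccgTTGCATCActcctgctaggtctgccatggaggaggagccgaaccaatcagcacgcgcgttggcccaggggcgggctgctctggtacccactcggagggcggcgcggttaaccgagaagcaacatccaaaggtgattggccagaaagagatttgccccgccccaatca
Herpud1 (chr19:10614708-10614957, minus strand): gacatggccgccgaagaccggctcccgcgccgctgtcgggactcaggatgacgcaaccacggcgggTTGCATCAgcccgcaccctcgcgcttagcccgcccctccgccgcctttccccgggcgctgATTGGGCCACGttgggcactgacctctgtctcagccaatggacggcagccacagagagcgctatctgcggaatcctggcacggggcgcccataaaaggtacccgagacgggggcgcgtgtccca
Hspa5 (chr3:38452766-38453015, plus strand): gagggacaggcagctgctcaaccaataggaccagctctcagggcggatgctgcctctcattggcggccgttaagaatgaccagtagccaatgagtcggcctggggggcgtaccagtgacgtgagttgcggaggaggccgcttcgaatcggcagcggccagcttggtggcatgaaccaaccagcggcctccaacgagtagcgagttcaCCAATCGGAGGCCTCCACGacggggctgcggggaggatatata
Hsp90b1 (chr7:23012294-23012543, minus strand): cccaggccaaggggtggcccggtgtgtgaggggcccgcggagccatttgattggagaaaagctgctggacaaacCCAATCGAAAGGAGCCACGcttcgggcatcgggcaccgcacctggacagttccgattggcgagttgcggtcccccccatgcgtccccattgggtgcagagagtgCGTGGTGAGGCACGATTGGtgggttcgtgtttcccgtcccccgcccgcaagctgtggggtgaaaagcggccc

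The C/EBP-ATF core lay on the reverse strand in Trib3 from base -21 to -14, in Chac1 from -167 to -160 and in Herpud1 from -184 to -177, counted back from the transcription start. It was present in 3.4% of all promoters of this length. The ER stress response element, present in 0.0657% of all promoters, lay in Hspa5 from -43 to -25 and in Hsp90b1 on the forward strand from -176 to -158 and on the reverse strand from -72 to -54. Herpud1 also held the second form from -124 to -114, which was present in 0.0418% of promoters. The elements did not overlap one another. A match of letters is a description and not a measured binding site.

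The probes of Trib3 and Asns are shown because these had the largest difference of any member in at least 1 comparison. Each was written as the array holds it, and the sources used here do not name the build of the array's coordinates. The Trib3 probe was placed on chromosome 3 from 142664936 to 142664995 and the Asns probe on chromosome 4 from 32759136 to 32759195, both on the minus strand.
Trib3 probe: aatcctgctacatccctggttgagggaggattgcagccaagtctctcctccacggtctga
Asns probe: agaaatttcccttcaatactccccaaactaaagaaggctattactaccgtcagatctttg

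Values below are log2 of the scanner's processed signal over the 75th percentile of its array, so that 0 is a signal at that percentile. Each value stands for 1 probe on 1 array and levels of different genes are not compared. Every member was well above background on all 7 arrays with complete marks, and all 10 passed the filter on dim probes. Over the 8 arrays 57.0% to 61.5% of marked spots were well above background and 0 were saturated. The arrays lay on 1 slide in 2 sets, the first with both MH samples and controls 1 and 2, the second with control 3 and all BM-MC samples, so for part of the genes values within a set are given beside the main ones. MHs and BM-MC samples share no set, so their comparison has no value within a set and only one with the set as a block, which rests on the controls. The captures held hepatocytes by their markers, whose 9 tested genes summed to between 842 and 1068 times the 75th percentile over the 8 samples. Macrophage markers (7 tested) summed to 42.8 to 50.1 in MHs, to 23.6 to 34.6 in control SHPCs and to 29.9 to 43.0 with BM-MCs, 5 endothelial markers to 10.3 to 14.1 over all samples, and 7 stellate and fibroblast markers to 6.48 to 9.94. Biliary markers (4 tested) were at 0.271 to 0.351 in MHs and 0.393 to 0.530 in SHPCs, and 2 T cell markers at 0.417 to 0.458 in control SHPCs, at 0.306 to 0.354 with BM-MCs and at 0.290 to 0.306 in MHs. The 3 tested granulocyte markers (S100a8, S100a9 and Retnlg) summed to 1.13 to 1.57 in control SHPCs, to 0.363 to 0.481 with BM-MCs and to 0.394 to 1.51 in MHs, while Mpo, Cxcr2 and Elane were too dim to test. The part of these cell types in the results below was not tested. In a bulk capture, fewer cells of a type and less RNA per cell cannot be told apart.

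The first comparison asked how SHPCs of livers with BM-MCs differed from control SHPCs. Trib3, a pseudokinase induced by ATF4 and CHOP that dampens their activity, had the widest separation of the 10 genes. It was at -0.56, -0.61 and -0.65 in the 3 BM-MC samples and at -1.36, -1.19 and -1.21 in the 3 controls. All BM-MC samples lay above all controls and the groups did not overlap. The group means were -0.61 ± 0.046 (SD, n = 3) and -1.26 ± 0.092 (SD, n = 3), a difference of 0.65 on the log2 scale (standard error 0.11, 95% interval 0.39 to 0.90), or 1.57-fold. This did not pass over all probes (adjusted p = 0.12 from limma). The 1 control in the second array set was likewise below the 3 BM-MC samples, and the difference there was 0.60, given without a p since it rests on that 1 control.

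Of the 10 members, 0 were called in this comparison, where limma called 0.0216% of 23111 probes (5 higher and 0 lower). At an unadjusted p under 0.05, 2 of 10 were past the threshold, Trib3 and Dnajb9, against 16.6% of all probes. The 2 groups did not overlap for the same 2 genes, against 24.7% of probes with complete values. The members therefore stood near the background in number. Among markers of other cell types, the 3 granulocyte markers were lower in value with BM-MCs (median -1.46, 3 of 3 with an unadjusted p under 0.05), as were the 2 T cell markers (median -0.44, 2 of 2), while 4 of 5 endothelial markers were higher in value (median 0.21, 2 of 5). Of 4 biliary markers 1 was higher in value (median -0.35, 1 of 4). Of the 9 hepatocyte markers 1 was higher in value with BM-MCs (median -0.13, 0 of 9). None of these passed adjustment, and their part in the differences of Trib3, Dnajb9 and the wider genes was not tested.

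Atf4 itself, the transcription factor of the pathway, was at 2.58, 2.33 and 2.61 with BM-MCs and at 2.69, 2.58 and 2.59 in controls. The groups overlapped and BM-MC replicate 2 was the lowest. The difference was -0.11 (95% interval -0.41 to 0.18), and -0.023 without that sample. Ddit3 encodes CHOP, the transcription factor that links long ER stress to cell death. It was at 0.59, 0.80 and 0.61 with BM-MCs and at 0.50, 0.55 and 0.77 in controls. The groups overlapped again, with a difference of 0.06 (95% interval -0.24 to 0.37), which leaves room for a change of up to 1.29-fold upward.

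Chac1, an enzyme that breaks down glutathione, was at -0.68, -0.50 and -0.19 with BM-MCs and at -1.01, -0.83 and -0.44 in controls. Control replicate 3 lay above 2 of the BM-MC samples, so the groups overlapped. The difference was 0.31 (95% interval -0.17 to 0.79), it was 0.17 without BM-MC replicate 3 and 0.47 without control replicate 3, and in the second array set, where control replicate 3 is the only control, it was -0.01. Sesn2, a sensor that restrains mTORC1 under amino acid lack, was at -3.91, -4.53 and -4.27 with BM-MCs and at -4.25, -4.73 and -3.74 in controls. Its groups lay over each other and differed by 0.0049 (95% interval -0.68 to 0.69), and by -0.49 within the second array set.

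Asns, which makes asparagine from aspartate, was at -4.38, -4.22 and -5.57 with BM-MCs and at -4.64, -4.38 and -5.00 in controls. These are dim signals: BM-MC replicate 3 had 1 of 2 spots well above background, and the 2 spots of control replicate 3 differed with an SD of 0.62 on the log2 scale. The difference was -0.05 (95% interval -0.96 to 0.86) and was 0.37 without BM-MC replicate 3.

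Among the ER proteins, Hspa5 (BiP, the main Hsp70 chaperone of the ER) was at 4.14, 4.37 and 4.29 with BM-MCs and at 4.34, 4.28 and 4.16 in controls. The groups covered the same range. The difference was 0.01 with an interval of -0.27 to 0.29, so a change of more than 1.22-fold upward lay outside it. The 10 spots of Hspa5 on an array differed with an SD of only 0.017 to 0.041 and those of Atf4 with an SD of 0.020 to 0.049.

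Hsp90b1, the Hsp90 chaperone of the ER, was at 2.31, 2.09 and 2.33 with BM-MCs and at 2.27, 1.86 and 2.32 in controls, a difference of 0.09 (95% interval -0.30 to 0.48). Herpud1, an ER membrane protein of the degradation machinery, was at 2.47, 3.09 and 2.61 with BM-MCs and at 2.68, 2.60 and 2.32 in controls, a difference of 0.19 (95% interval -0.29 to 0.67) that was 0.40 within the second array set. Both genes overlapped between groups, and the high value of Herpud1 was that of BM-MC replicate 2, without which its difference was 0.0065. Scaling to the array median put it at 0.00010.

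Dnajb9, a J-domain partner of BiP, was at -1.95, -2.23 and -1.88 with BM-MCs and at -1.47, -1.78 and -1.70 in controls. All 3 BM-MC samples were below all 3 controls, the opposite order to Trib3. The difference was -0.37 (standard error 0.15, 95% interval -0.72 to -0.01), which did not pass (adjusted p = 0.29 from limma). Within the second array set, with its 1 control, it was -0.32.

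**Figure D1:**
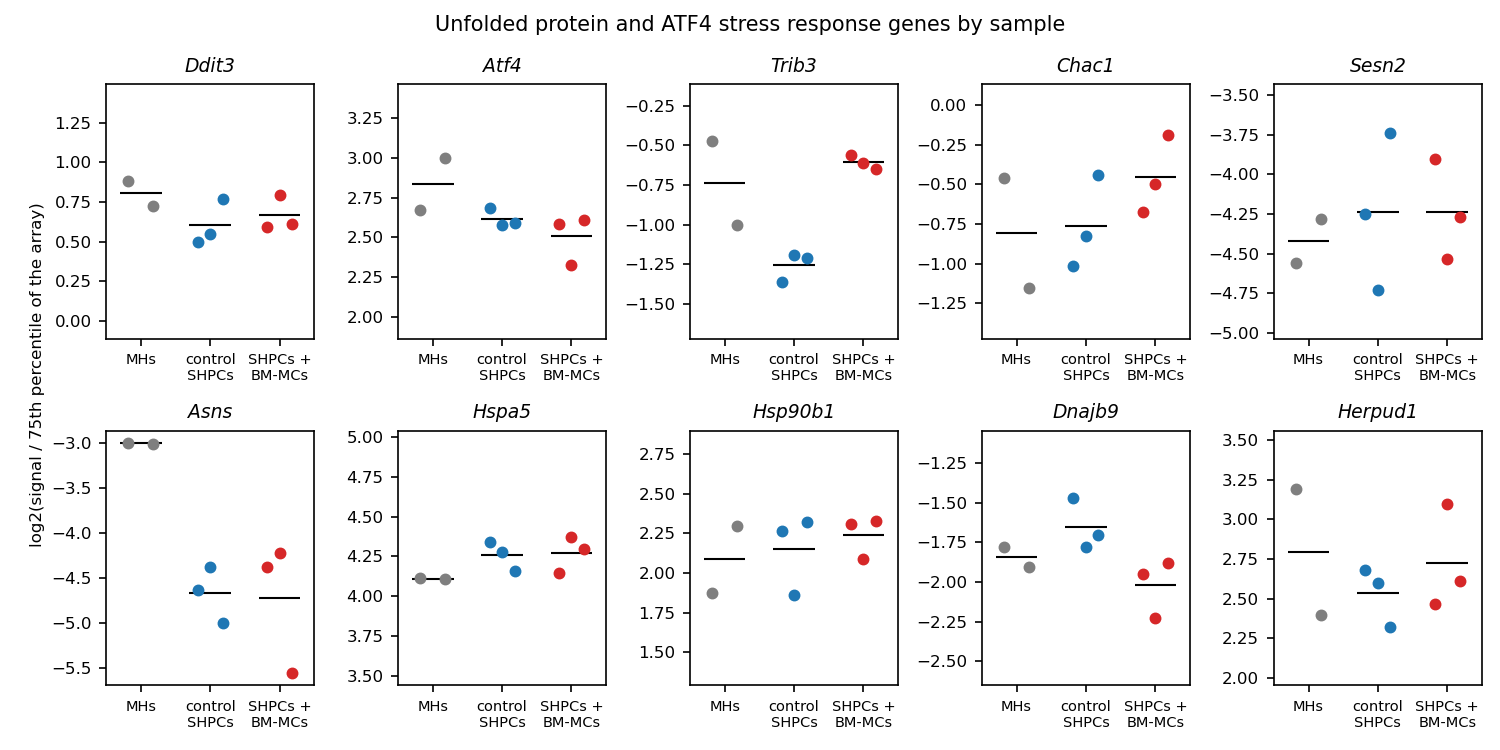
Level of each of the 10 genes in every sample, as log2 of the signal over the 75th percentile of the array (vertical axis, its range set for each gene), in MHs (n = 2, grey), control SHPCs (n = 3, blue) and SHPCs with BM-MCs (n = 3, red), with replicates in order from left to right and lines at the group means. Trib3 was lowest in the 3 control SHPC samples, and Asns was at -2.997 and -3.013 in the MHs and at -4.22 or lower in every SHPC sample.

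The second comparison set control SHPCs against MHs, the 2 cell types of livers labelled as control. Its 3 control samples are those of the first comparison, where they enter with the opposite sign. A gene extreme in these samples thus differs in both comparisons. Asns had the largest difference of the 10 genes. It was at -2.997 and -3.013 in the 2 MH samples and at -4.64, -4.38 and -5.00 in the 3 control SHPC samples, without overlap. The difference was -1.67 (standard error 0.39, 95% interval -2.58 to -0.75), or 3.18-fold lower in SHPCs, and it did not pass (adjusted p = 0.11 from limma). In the first array set, with control replicates 1 and 2 only, it was -1.50 (adjusted p = 0.031 from limma), and it passed as well when only the 2 groups entered the fit (adjusted p = 0.035 from limma). With the array set as a block in the fit of 8 samples, it was -1.50 and did not pass (adjusted p = 0.18 from limma). In the MHs the mean signals were 188 and 210 and in the control SHPCs 41.0 to 83.9, beside median spot signals of 61.3 to 87.2 on the arrays.

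Trib3 was at -0.47 and -1.003 in MHs, both above the 3 controls given above. The difference was -0.52 (95% interval -0.91 to -0.12, adjusted p = 0.18 from limma). It rested on the wide spread of the MHs (SD 0.37, n = 2): it was -0.78 without MH replicate 2 and -0.25 without MH replicate 1. Trib3 was therefore lowest in control SHPCs, and its levels in MHs and in SHPCs with BM-MCs lay over each other, with a difference between them of 0.13 (95% interval -0.26 to 0.52).

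Macrophage markers moved with this comparison: 1 of 7 was higher in value in control SHPCs, the median difference was -0.57, and 4 of 7 had an unadjusted p under 0.05. The 2 T cell markers were both higher (median 0.65, 2 of 2 under 0.05), as were the 4 biliary markers (median 0.74, 1 of 4). Of the 9 hepatocyte markers 7 were higher in value in control SHPCs (median 0.10, 3 of 9 under 0.05). For BM-MC samples minus MHs the macrophage median was -0.47 (3 of 7 under 0.05) and the hepatocyte median 0.02 (1 of 9). Of the plasma and B cell markers Jchain alone was tested, with a difference of 1.49 for control SHPCs minus MHs (unadjusted p under 0.05) and of -0.71 for BM-MC samples minus controls. The 3 tested erythroid markers had a median of 0.10 for control SHPCs minus MHs and of -1.26 for BM-MC samples minus controls, with 1 of 3 under 0.05 in each. For BM-MC samples minus MHs their median was -0.55, with 2 of 3 under 0.05. Of the 7 stellate and fibroblast markers 3 were under 0.05 in each comparison with MHs, with medians of 0.10 and 0.32. No marker of these lists passed adjustment, and their part in the differences between groups was not tested.

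Of the 10 members, 0 were called, where limma called 1.13% of 23111 probes (212 higher and 50 lower in control SHPCs). Asns and Trib3 had an unadjusted p under 0.05, 2 of 10 against 19.2% of probes. The groups did not overlap for 4 of 10 (Asns and Trib3 lower, Hspa5 and Dnajb9 higher in control SHPCs), against 41.4% of probes.

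Hspa5 was at 4.11 in both MH samples, below every SHPC sample, and control SHPCs were higher by 0.15 (95% interval -0.14 to 0.44). Dnajb9 was at -1.78 and -1.90 in MHs, and control SHPCs were higher by 0.19 (95% interval -0.17 to 0.55). Control replicate 2, also at -1.78, lay only just above the higher MH sample. Atf4 was at 2.67 and 2.998 in MHs, a difference of -0.22 for control SHPCs (95% interval -0.57 to 0.13), and Ddit3 was at 0.88 and 0.73, a difference of -0.20 (95% interval -0.52 to 0.13). Both overlapped with the controls. The difference of Atf4 was -0.38 without MH replicate 1 and -0.055 without MH replicate 2, that of Ddit3 was -0.12 without MH replicate 1, and that of Dnajb9 was 0.10 without control replicate 1.

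The 2 MH samples themselves stood apart for Herpud1 (3.19 and 2.40), Chac1 (-0.46 and -1.16) and Hsp90b1 (1.88 and 2.30). The SDs of these 3 genes in MHs were 0.56, 0.49 and 0.30. Sesn2 was at -4.56 and -4.28. The differences of control SHPCs from MHs were -0.26 for Herpud1, 0.05 for Chac1, 0.06 for Hsp90b1 and 0.18 for Sesn2, all with intervals that span 0. The widest of these intervals, that of Sesn2, ran from -0.53 to 0.89.

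The third comparison set SHPCs with BM-MCs against the same 2 MH samples, and so shares samples with both other comparisons. Asns was again the member with the largest difference, at -4.72 ± 0.73 (SD, n = 3) with BM-MCs against -3.005 ± 0.012 (SD, n = 2) in MHs. The difference was -1.72 (95% interval -2.63 to -0.80), or 3.29-fold lower, with an adjusted p = 0.20 from limma. It was -1.30 without BM-MC replicate 3, the dimmest sample, and -1.22 with the array set as a block. All 6 SHPC samples were thus below both MH samples.

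Atf4 was lower with BM-MCs than in both MH samples, without overlap, by a difference of -0.33 (95% interval -0.68 to 0.02, adjusted p = 0.39 from limma), and Hspa5 was higher without overlap, by 0.16 (95% interval -0.13 to 0.45). With the array set as a block these were -0.29 and 0.31. The difference of Atf4 was -0.49 without MH replicate 1 and -0.17 without MH replicate 2. The other members overlapped. Of the 10 members, 0 were called, where limma called 0.338% of 23111 probes (74 higher and 4 lower). Asns alone had an unadjusted p under 0.05, 1 of 10 against 13.3% of probes, and 3 of 10 did not overlap, against 32.3% of probes.

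**Figure D2:**
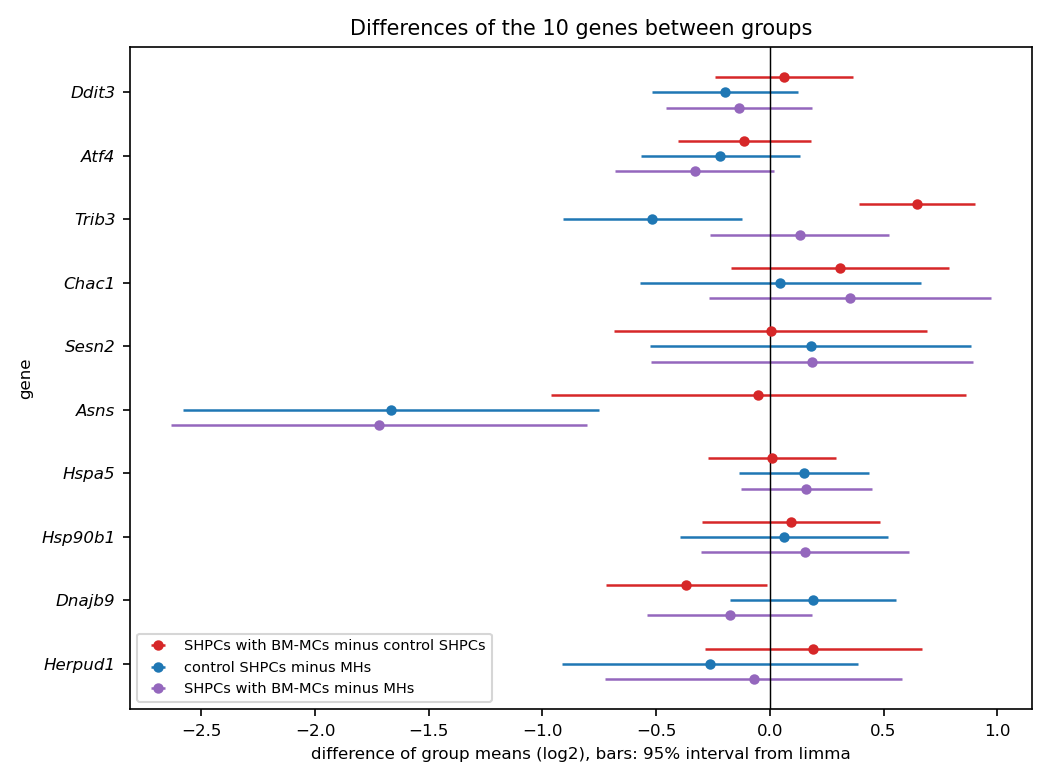
Difference of group means on the log2 scale (horizontal axis) for each of the 10 genes, with the 95% interval from limma as bars, for SHPCs with BM-MCs minus control SHPCs (red), control SHPCs minus MHs (blue) and SHPCs with BM-MCs minus MHs (purple). The intervals lay off 0 for Trib3 and Dnajb9 in the first comparison, for Trib3 and Asns in the second and for Asns in the third, and no difference passed adjustment over all probes.

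Which genes kept their direction under other processing differed from member to member. Over 22 alternatives for SHPCs with and without BM-MCs, of which the second array set alone had only 1 control, Trib3 stayed between 0.46 and 0.68 and Dnajb9 between -0.56 and -0.26. Trib3 passed in 1 of them, the fit with a weight for each array (adjusted p = 0.046 from limma). Atf4 and Herpud1 also kept their sign, whereas Ddit3, Asns, Chac1, Sesn2, Hspa5 and Hsp90b1 changed sign in at least 1 alternative. Taking the median of each array, instead of its 75th percentile, as the scale lowered all differences of BM-MC samples from controls by 0.19, so directions of members with smaller differences depend on the scaling. For control SHPCs against MHs, Asns stayed between -1.81 and -1.06 over 21 alternatives.

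**Figure D3:**
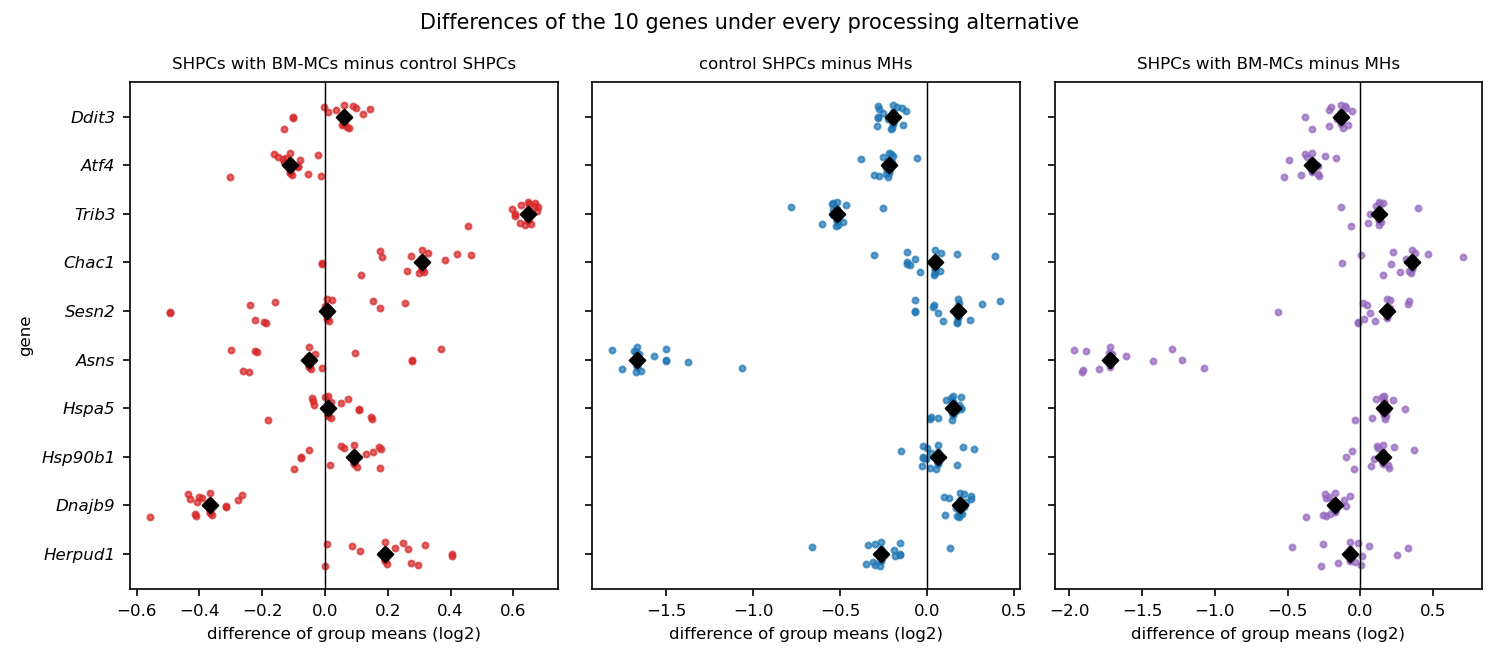
Difference of group means (log2, horizontal axis) of the 10 genes under each processing alternative (small points) and as reported (black diamonds), with 1 panel for each comparison. Points of Trib3 and Dnajb9 lay on 1 side of 0 in the comparison of BM-MC samples with controls, as did those of Asns in both comparisons with MHs, while those of Chac1, Sesn2 and Hsp90b1 lay on both sides in all 3.

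In all, 6 wider lists of genes of the same pathways were read in the same fits, with 96 genes outside the members, of which 90 were tested. Vldlr, Stc2, Slc7a11, Slc7a1 and Vars1 were too dim to test and Derl2 had no probe of that name. In each of the 3 comparisons 0 of the 90 genes passed, and 11, 19 and 16 of them had an unadjusted p under 0.05, that is 12.2%, 21.1% and 17.8%, against 16.2%, 20.3% and 13.5% of all 14536 genes tested. The order is that of the comparisons above. Each gene is given by its brightest tested probe, and each list includes the members that belong to it.

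The ATF4 stress regulators (16 tested) had a median difference of 0.01 with BM-MCs, against 0.02 for all genes, yet held the largest single difference. Gdf15, a secreted cytokine of the TGF-beta family induced by ATF4 and CHOP, was at -2.17, -1.02 and -1.67 with BM-MCs and at -3.94, -3.77 and -3.83 in controls. All BM-MC samples were far above the controls, whose own spread was small. The difference was 2.23 (standard error 0.28, 95% interval 1.54 to 2.91), or 4.68-fold (adjusted p = 0.080 from limma). It was 2.21 within the second array set, and it passed in 4 of 22 alternatives, with a size over all of them of 1.71 to 2.502. In MHs Gdf15 was at -1.37 and -2.75, and the difference of control SHPCs from MHs was -1.79 (95% interval -2.82 to -0.76, adjusted p = 0.12 from limma). It was -2.48 without MH replicate 2 and -1.10 without MH replicate 1. Gdf15 thus shared with Trib3 the order of levels with control SHPCs lowest, over the same 8 samples. Fgf21, a hormone of fasting and amino acid lack, had a difference of 0.54 with BM-MCs (95% interval -0.07 to 1.14) that was -0.04 within the second array set. It was 0.82 without control replicate 3, the only control of that set.

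The same list against MHs had medians of -0.11 for control SHPCs and -0.10 with BM-MCs. Cebpg, a partner of ATF4 on DNA, was at -0.29 for control SHPCs minus MHs (adjusted p = 0.25 from limma) and at -0.40 for BM-MC samples minus MHs (adjusted p = 0.29 from limma). The latter was -0.25 with the array set as a block and 0.03 when all tested probes of the gene were averaged, so its direction depends on the probe. The difference of BM-MC samples from controls likewise went from -0.11 to 0.26 with all probes averaged. Atf3, a stress-induced repressor, was at 0.53 for BM-MC samples minus MHs (adjusted p = 0.33 from limma), with 0.26 without MH replicate 2 and 0.79 without MH replicate 1.

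Sensors and eIF2alpha kinases (14 tested) had a median of 0.04 with BM-MCs. Xbp1, the transcription factor that IRE1 activates by splicing its mRNA, was at 2.14, 2.20 and 2.19 with BM-MCs and at 1.78, 1.73 and 1.52 in controls. These groups did not overlap. The sources used here do not say whether the probe tells spliced from unspliced mRNA apart. The difference was 0.50 (95% interval 0.22 to 0.77, adjusted p = 0.16 from limma), and Xbp1 in MHs was at 1.82 and 1.83. Eif2ak3, which encodes PERK, differed by 0.28 (95% interval 0.01 to 0.55) and Ppp1r15a, a phosphatase subunit that reverses eIF2alpha phosphorylation, by 0.37 (95% interval -0.0037 to 0.75), or 0.62 within the second array set. For control SHPCs minus MHs, Atf6 was at -0.35 and Eif2ak1, the haem-regulated eIF2alpha kinase, at -0.42 (adjusted p = 0.23 and 0.24 from limma), and Eif2ak1 at -0.26 without MH replicate 1. Ppp1r15b, the constitutive partner of the same phosphatase, was at -0.31 for control SHPCs and -0.37 for BM-MC samples minus MHs. Leaving out MH replicate 1 gave -0.09 and -0.15, leaving out MH replicate 2 gave -0.53 and -0.59, and the array set as a block gave -0.20 for BM-MC samples.

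ER chaperones and folding enzymes (20 tested) were higher in value in 15 genes for control SHPCs minus MHs, against 42.7% of all genes, with a median of 0.20 against -0.06 for all genes. Of these 20 genes 9 did not overlap upward and 1 downward, against 16.8% and 25.4% of all genes. For BM-MC samples minus MHs 16 of 20 were higher in value, against 47.3% of all genes, with a median of 0.10. There 2 genes did not overlap upward and 0 downward, against 14.7% and 17.9% of all genes. With BM-MCs against controls 9 of 20 were higher in value, against 53.5% of all genes, and the median was -0.01. Creld2, an ER-resident factor induced by ER stress, was at -0.59, -0.63 and -0.53 with BM-MCs, at 0.09, 0.05 and -0.26 in controls and at -0.61 and -0.72 in MHs. Controls lay above both other groups, by 0.54 and 0.62 (adjusted p = 0.17 and 0.10 from limma), and the difference of BM-MC samples from controls was -0.32 within the second array set. Calr, the calcium-binding lectin chaperone calreticulin, had the opposite order, at 2.19, 2.63 and 2.53 with BM-MCs, 1.68, 1.503 and 1.98 in controls, and 2.44 and 2.28 in MHs. Its differences were 0.73 with BM-MCs against controls and -0.64 for controls against MHs (adjusted p = 0.17 and 0.16 from limma), and the first was 0.47 within the second array set. The chaperones were thus not uniform. P4hb, the protein disulfide isomerase, was at 0.51 for control SHPCs minus MHs (adjusted p = 0.20 from limma), and Ppib, an ER prolyl isomerase, at 0.26 for BM-MC samples minus MHs, with 0.14 without BM-MC replicate 3 and 0.06 with scaling to the array median. Dnajb11, another partner of BiP, was at -0.27 for BM-MC samples minus controls and at -0.11 within the second array set.

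ER-associated degradation and translocation (19 tested) was lower in value with BM-MCs in 12 genes, against 46.5% of all genes, with a median of -0.08. In this list 6 genes did not overlap downward and 0 upward, against 11.2% and 13.1% of all genes. For control SHPCs minus MHs 8 did not overlap upward and 1 downward, against 16.8% and 25.4% of all genes. Edem1, which hands misfolded glycoproteins over for degradation, was at 3.85, 3.53 and 3.73 with BM-MCs and at 4.60, 4.63 and 4.73 in controls. The groups were well apart. The difference was -0.95 (standard error 0.12, 95% interval -1.25 to -0.65, adjusted p = 0.085 from limma), it was -1.03 within the second array set, and it passed in 3 of 22 alternatives. In MHs Edem1 was at 3.94 and 4.32, between the other groups. Erlec1, a lectin of the same pathway, was at -0.44 with BM-MCs against controls (adjusted p = 0.24 from limma) and 0.37 for controls against MHs (adjusted p = 0.26 from limma). Sel1l, a subunit of a ubiquitin ligase complex of the ER membrane, was at 0.48 and 0.53 for the 2 SHPC groups minus MHs (adjusted p = 0.27 and 0.36 from limma). With the array set as a block these were 0.32 and 0.04.

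Amino acid synthesis and transport genes (18 tested) had 9 of 18 with an unadjusted p under 0.05 for control SHPCs minus MHs, against 20.3% of all genes, and the list went both ways, with 9 genes not overlapping upward and 5 downward, against 16.8% and 25.4% of all genes. Psat1, an enzyme of serine synthesis, was at -1.04, -0.98 and -1.30 in controls, at -2.38 and -2.16 in MHs and at -2.10, -2.88 and -1.83 with BM-MCs. It stood 1.16 above MHs (95% interval 0.48 to 1.85, adjusted p = 0.13 from limma), while the BM-MC samples were at -1.16 against controls (95% interval -1.84 to -0.49, adjusted p = 0.17 from limma). The first of these passed within the first array set (1.26, adjusted p = 0.038 from limma) and did not pass with the array set as a block in the fit of 8 samples (1.26, adjusted p = 0.15 from limma). Psph, the last enzyme of serine synthesis, was at -0.79 and Mthfd2, a mitochondrial folate enzyme, at -0.61 with BM-MCs against controls (adjusted p = 0.23 and 0.25 from limma). For Mthfd2 the 2 SHPC groups overlapped, with control replicate 3 at -3.06 and BM-MC replicate 3 at -3.05, and the difference was -0.26 within the second array set. Mthfd2 was at 0.90 for controls against MHs (adjusted p = 0.12 from limma). The means of these 3 genes were highest in control SHPCs, opposite to Trib3 and Gdf15 and unlike Asns, for which both SHPC groups lay below MHs. Such orders rest on the same 3 control samples in both comparisons, so the 2 differences of a gene are not separate results. Of the transporters, Slc38a2 was at 1.07 (adjusted p = 0.27 from limma) and Slc6a9, a glycine transporter, at -1.01 (adjusted p = 0.32 from limma) for BM-MC samples minus MHs. Slc38a2 was at 0.73 without BM-MC replicate 3. For Slc6a9 the groups overlapped, and its difference was -0.64 without MH replicate 1 and -1.37 without MH replicate 2.

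Aminoacyl-tRNA synthetases (13 tested), which charge tRNAs with amino acids, were lower in value in 10 of 13 genes in each comparison, against 46.5%, 57.3% and 52.7% of all genes, with medians of -0.08, -0.18 and -0.28 against 0.02, -0.06 and -0.02 for all genes. For BM-MC samples minus MHs, 7 of 13 had an unadjusted p under 0.05, against 13.5% of all genes. Among them, Gars1 went from -0.42 to -0.03 with the array set as a block. Aars1, Cars1, Iars1, Nars1 and Yars1 were then between -0.67 and -0.28. Cars1 was at -0.62 for control SHPCs and -0.64 for BM-MC samples minus MHs (adjusted p = 0.10 and 0.18 from limma), and Iars1 at -0.45 for the latter (adjusted p = 0.26 from limma). Gars1 was at -0.53 and Aars1 at -0.22 for control SHPCs minus MHs, and Yars1 at -0.35 for BM-MC samples minus MHs. With BM-MCs against controls the differences were smaller, at -0.23 for Iars1, -0.25 for Nars1 and -0.20 for Yars1, with intervals that span 0. Within the second array set these were -0.15, -0.41 and -0.26, and without BM-MC replicate 2 Nars1 was at -0.14 and Yars1 at -0.13.

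**Figure D4:**
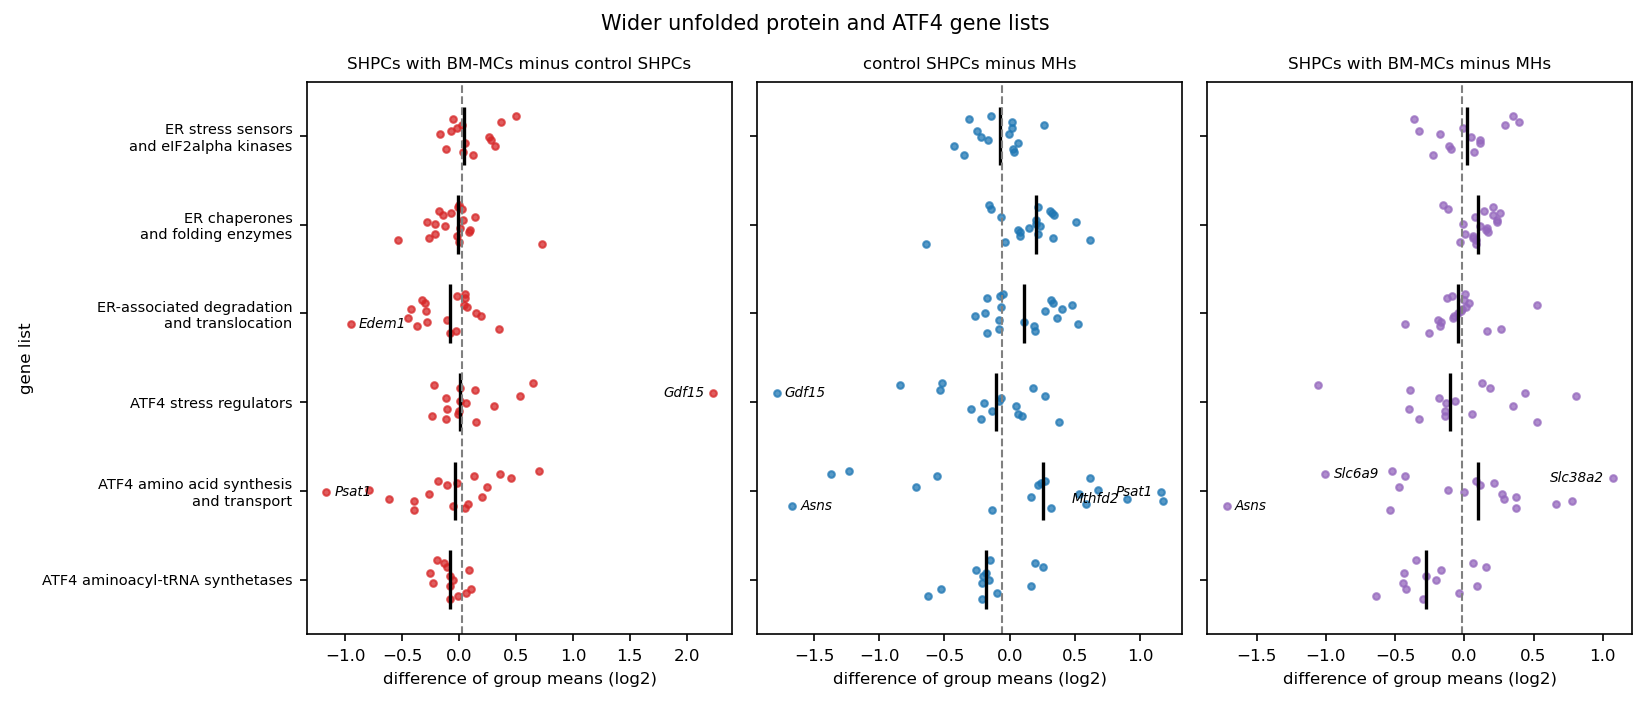
Difference of group means (log2, horizontal axis) of each tested gene (points) in 6 wider lists, with list medians as black bars and the median of all 14536 tested genes as a dashed line, in 1 panel for each comparison. Named are genes of the text beyond 0.9 in size in that comparison, among them Gdf15 at 2.23 and Psat1 at -1.16 with BM-MCs, and the median of ER chaperones for control SHPCs minus MHs was 0.20.

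**Figure D5:**
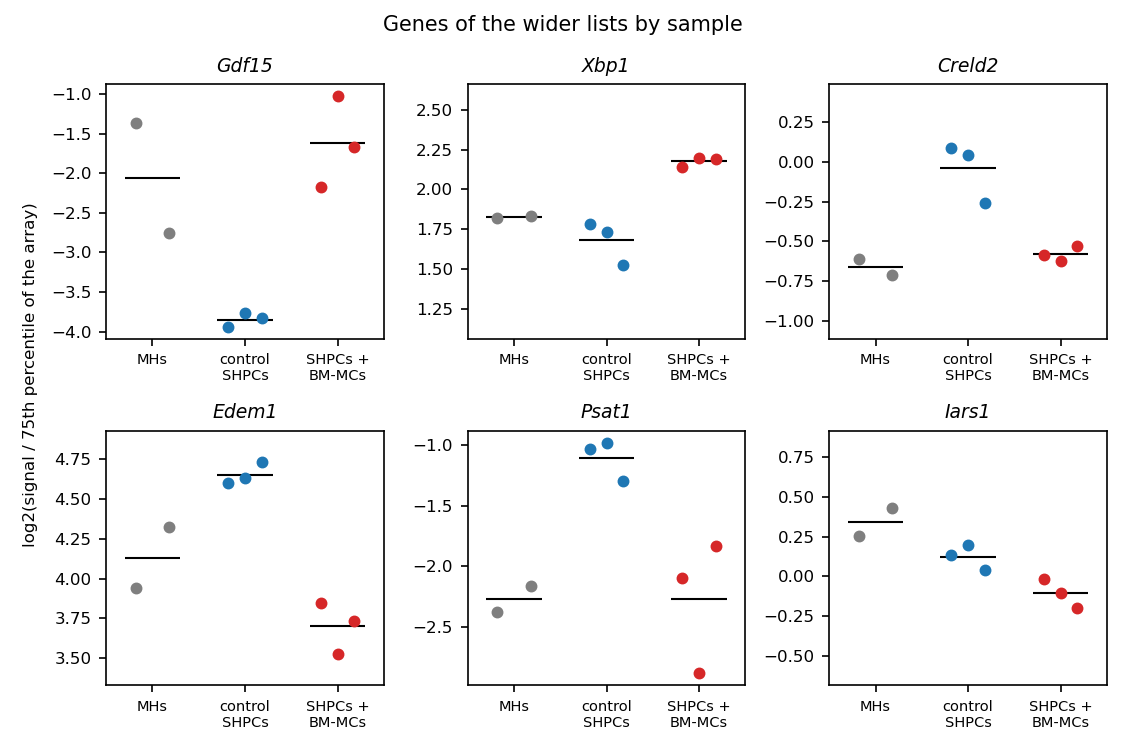
Level in every sample (log2 of the signal over the 75th percentile of the array, vertical axis with its range set for each gene) of the gene with the lowest unadjusted p for BM-MC samples against controls in each wider list, in MHs (n = 2), control SHPCs (n = 3) and SHPCs with BM-MCs (n = 3), with lines at group means. Gdf15 lay lowest in control SHPCs, at -3.77 or below, and Psat1, Creld2 and Edem1 lay highest there.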

How the data were processed

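RNA of laser-captured cells was measured in 8 samples on 1-colour Agilent rat arrays. The values deposited by the authors are processed signals, that is intensity after background subtraction by Agilent Feature Extraction 10.7 (per the labels), not scaled between arrays. The value table held the same signals, with a largest relative difference of 1.19e-06. For control SHPC replicate 2 the scanner output covers 20903 of 62976 features, so the value table supplied its signals and its marks did not enter the filter.

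Signals were taken as log2 relative to the 75th percentile of the array, without outlier spots, and averaged over the spots of a probe. A probe was tested if well above background on 3 or more of 7 fully marked arrays, which left 23111 for limma 3.58.1 (R 4.3.3) and Benjamini-Hochberg adjustment at 0.05. SHPC groups were compared on their 6 samples, and comparisons with MHs on all 8. On simulated data with 22969 probes, 44% of 2-fold and 83% of 4-fold changes were recovered for SHPCs with against without BM-MCs, 42% and 84% for control SHPCs against MHs, and 30% and 72% for SHPCs with BM-MCs against MHs, with 6, 8 and 5 unchanged probes called over both fold sizes together. The number of arrays limits the precision.

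The members, lists and alternatives were chosen with earlier results of these data known. Named were the 10 members, and from each wider list and comparison any gene past the threshold and the 3 with the lowest unadjusted p. A gene that this rule also names is not reported here. Genes were named through RefSeq accessions or symbols. Alternatives covered scaling, background, filters, outlier spots, blocks, array sets of the slide, samples in the fit, limma options, the methods' t-test and each sample left out. Promoters were searched with Python 3.11.15.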

Additional observations from a re-analysis of the deposited data

How the results depend on the processing

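The count of members called stayed at 0 except for Trib3 with array weights for SHPCs with against without BM-MCs (1 called), for Asns in control SHPCs against MHs within the first array set (1) and in a fit without BM-MC samples (1), and in the methods' t-test without adjustment, which called 1 member (Trib3), 1 member (Asns) and 0 members in the 3 comparisons. Over all probes that t-test called 3453, 4037 and 2141 without adjustment and 0 in each comparison after Benjamini-Hochberg adjustment, and of the wider lists 14, 23 and 10 genes without adjustment. Of 630 values of single members under alternatives 59 changed sign. No member had passed as reported, so no sign change could be of a value that had. Several alternatives, among them the filters, the intensity trend and the t-test, cannot change a difference of group means. The count therefore says little on stability. The cause of the sign changes was not tested.

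For SHPCs with against without BM-MCs, wider genes were called without scaling (1, Gdf15), with an intensity trend or array weights (2, Edem1 and Gdf15) and with 1 sample left out (0 to 3; the 3 were Edem1, Fgf21 and Gdf15 without control replicate 3). Calls over all probes, 5 as reported, were 213 without scaling, 3 with normexp and quantile normalization, with probes above background on every complete array or with a floor, 0 without a filter, 0 within the second array set (where 1 control was assumed to vary like the BM-MC samples, so that this 0 says nothing on stability), 22 with all 8 samples, 33 with an intensity trend, 326 with array weights and 0 to 530 with 1 sample left out. They were 530 without control replicate 3, 20 without BM-MC replicate 3 and 0 without any other sample. Scaling to the median put the wider genes at -0.21, Ddit3 at -0.13, Sesn2 at -0.19, Hspa5 at -0.18 and Hsp90b1 at -0.10. Sesn2 was at -0.19 under quantile normalization and -0.22 with normexp, and Hspa5 at -0.035 with array weights. The array set as a block or the second set alone gave Ddit3 -0.10, Asns 0.28, Chac1 -0.011, Sesn2 -0.49 and Hsp90b1 -0.076. With each sample left out, Sesn2 ran from -0.24 to 0.25, Asns from -0.30 to 0.37, Hsp90b1 from -0.051 to 0.18, Hspa5 from -0.041 to 0.074, Ddit3 from -0.0025 to 0.14 and the median of the wider genes from -0.080 to -0.028.

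For control SHPCs against MHs, wider genes were called within the first array set and without BM-MC samples in the fit (1, Psat1), and with an intensity trend or array weights (1, Creld2). Calls over all probes, 262 as reported, were 124 with normexp and quantile normalization, 136 without a filter, 415 within the first array set, 559 with an intensity trend, 490 with array weights and 55 to 289 with 1 sample left out (55 without MH replicate 1, 131 without MH replicate 2, 102 without control replicate 1 and 97 without control replicate 2). The median of the wider genes, 0.02 as reported, was 0.0011 under quantile normalization and -0.066 without scaling. Without scaling Chac1 was at -0.042 and Hsp90b1 at -0.026. The array set as a block or the first set alone gave Chac1 -0.11, Sesn2 -0.071 and Hsp90b1 -0.023, and array weights gave Chac1 -0.070. With each sample left out, Hsp90b1 ran from -0.15 to 0.27, Herpud1 from -0.66 to 0.13, Chac1 from -0.30 to 0.39 and Sesn2 from -0.071 to 0.42.

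For SHPCs with BM-MCs against MHs, calls over all probes, 78 as reported, were 50 with scaling to the median, 7 under quantile normalization, 5 with normexp, 1 without a filter, 3 with the array set as a block, 0 without controls in the fit, 130 with an intensity trend and 0 to 115 with 1 sample left out (2 and 6 without MH replicates 1 and 2 and 0 without BM-MC replicate 2). The wider genes were at -0.20 with scaling to the median, which also put Trib3 at -0.068, Sesn2 at -0.014, Hspa5 at -0.037 and Hsp90b1 at -0.043, and at -0.083 without scaling. Quantile normalization gave Sesn2 -0.019 and Herpud1 0.00057. The array set as a block gave Chac1 -0.12, Sesn2 -0.56, Hsp90b1 -0.10 and Herpud1 0.25. With each sample left out, Hsp90b1 ran from -0.055 to 0.37, Herpud1 from -0.47 to 0.32 and Trib3 from -0.13 to 0.39.

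Samples of the same replicate number in the SHPC groups correlated in their deviations from group means at 0.13, 0.078 and 0.17. Samples of different numbers in these groups correlated at -0.15 to 0.082. No source ties the numbers to animals, so the main fits did not pair samples, and these values do not settle whether the numbers pair them. With the replicate number as a block, limma called 0 members in each comparison and 0, 159 and 0 probes, and put Chac1 at -0.10 and Hsp90b1 at -0.0024 for control SHPCs against MHs and Herpud1 at 0.010 for BM-MC samples against MHs. Signals of Asns and Sesn2 lay above the median spot of the array on 4 and 5 of 8 arrays, and those of the other members on all 8.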
